A study of Arabidopsis thaliana with 8 samples.

Results

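The chloroplast-annotated genes are 86 probe sets of the Arabidopsis ATH1 array that name 1 gene each, appear in at least 1 of the authors' 4 deposited comparison tables, and have the word chloroplast in the Gene Ontology cellular component column of those tables. They were taken from 90 such probe sets after 4 genes set aside by the selection rule were left out, and they stand among 692 listed probe sets with 1 gene and 22746 probe sets on the array. All 86 are different genes on the nuclear chromosomes, with 26, 10, 16, 16 and 18 on chromosomes 1 to 5, and 0 of the listed genes are encoded in the plastid genome. Shoots of Columbia seedlings were sampled after 21 days on medium with 1 µM 24-epibrassinolide (EBR), a brassinosteroid hormone, or with 0.01% ethanol as the control. Both arms were sampled at 4 stages, which were unstressed (0 h), after 1 h and after 3 h at 43°C, and after 6 h of recovery at 22°C that followed 3 h at 43°C (6 hR). The 8 groups have 1 deposited sample each, which stands for 3 biological replicate arrays, and each treatment pooled the tissue of 30 or more seedlings. No mutant or transgene is involved, and all groups share the wild-type background and, apart from EBR and ethanol, the medium. Ethanol is given for the control arm alone, so as labelled it differs together with EBR.

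Most chloroplast proteins are encoded in the nucleus, made in the cytosol and imported into the organelle. The plastid keeps its own small genome, whose transcripts are edited, cut and translated by imported proteins, among them the large pentatricopeptide repeat (PPR) family. Chloroplasts also make starch, fatty acids, many amino acids, tocopherols and the first intermediates of jasmonate, so the annotation joins photosynthesis with much of the shoot's biosynthesis. Brassinosteroids are growth hormones that are also known to raise tolerance to heat in seedlings, and the comparison of EBR with control shoots at each stage asks which transcripts differ between hormone-treated and untreated plants before, in and after heat.

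The label rests mainly on prediction. The chloroplast term had electronic evidence alone for 69 of the 86 genes, a direct assay for 12 and other evidence for 5. A thylakoid term stood beside it for 6 genes, a stroma term for 2, a mitochondrial term for 3, and a nuclear term for 2. Some annotated products are known to work elsewhere. RPS2 is an immune receptor of the plasma membrane that shares its abbreviation with a ribosomal protein, and the tables annotate it to the plastid small ribosomal subunit. NPR3, a salicylate receptor, CPK28, a calcium-dependent kinase, and AT1G09250 (AIF4), a helix-loop-helix factor, also act outside the plastid. The set is therefore called chloroplast-annotated throughout. Of the 12 genes with a direct assay, 3 rose and 6 fell with EBR by the test described next, and of the other 74 genes 25 rose and 31 fell. Over all probe sets that test called 5.06% higher and 5.91% lower. Both groups of genes were listed by the authors for an EBR effect, so these counts only describe them.

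Values are log2 ratios of EBR to control shoots of the same stage, computed from the deposited linear ratios, so 1 is a doubling and -1 a halving. Limma tested the mean of the 4 stage ratios against 0, with Benjamini-Hochberg adjustment over all 22746 probe sets at 0.05. This p-value measures agreement between stages, which may share batches of plants, and not the spread between seedling batches. The authors listed probe sets for an EBR effect in a 2-way analysis of variance and a fold of at least 2, so the counts of genes called are a description of listed genes and not independent evidence. An approximate SD of the 3 control arrays could be read from the control columns, with a median over the 86 genes of 0.13, 0.13, 0.17 and 0.17 log2 units at 0 h, 1 h, 3 h and 6 hR. In bulk shoot tissue, fewer cells that express a gene and less RNA per cell cannot be told apart. Shoot identity could be checked little, because only listed probe sets can be named. Of 7 root marker genes 0 were listed, and of 7 floral markers only PISTILLATA was, at a mean of -0.75. The 3' to 5' ratios of the 4 actin and GAPDH control pairs were higher in EBR arrays at 1 h, by 0.29 to 0.57 log2 units, and lower at 6 hR, by -0.47 to -0.08, with mixed signs at 0 h and 3 h. Their part in the results was not tested.

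Over the 4 stages 28 of the 86 genes rose and 37 fell, while 21 did not pass the test. Over all 22746 probe sets limma called 5.06% higher and 5.91% lower. Among the 602 other listed genes 277 rose and 136 fell, which is 46% and 22.6% of them, against 32.6% and 43% of the chloroplast-annotated genes. The listing is shared by both sets, and the difference was not tested. The same sign was seen at all 4 stages for 28 genes above 0 and 42 below 0, against 12.3% and 20.3% of all probe sets. The remaining 16 genes had the same sign at 3 stages. Leaving out a stage moved the counts. They were 12 rose and 17 fell without 0 h, 9 and 10 without 1 h, 14 and 21 without 3 h, and 34 and 46 without 6 hR. Of the calls, 9 of 28 and 10 of 37 held with each stage left out in turn, and 28 of 28 and 31 of 37 held under both other scalings of the stages. The 9 that held among genes that rose were COR413IM1, PGDH, SIB1, APL3, RPS2, PLAT1, ERD7, AT5G52810 and LHCB4.3. The 10 that held among genes that fell were CS26, CCS, EMB3108, AT5G48470, CPZ, CRR21, SCO1, AT5G28500, AT3G22150 and AT4G34290.

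**Figure D1:**
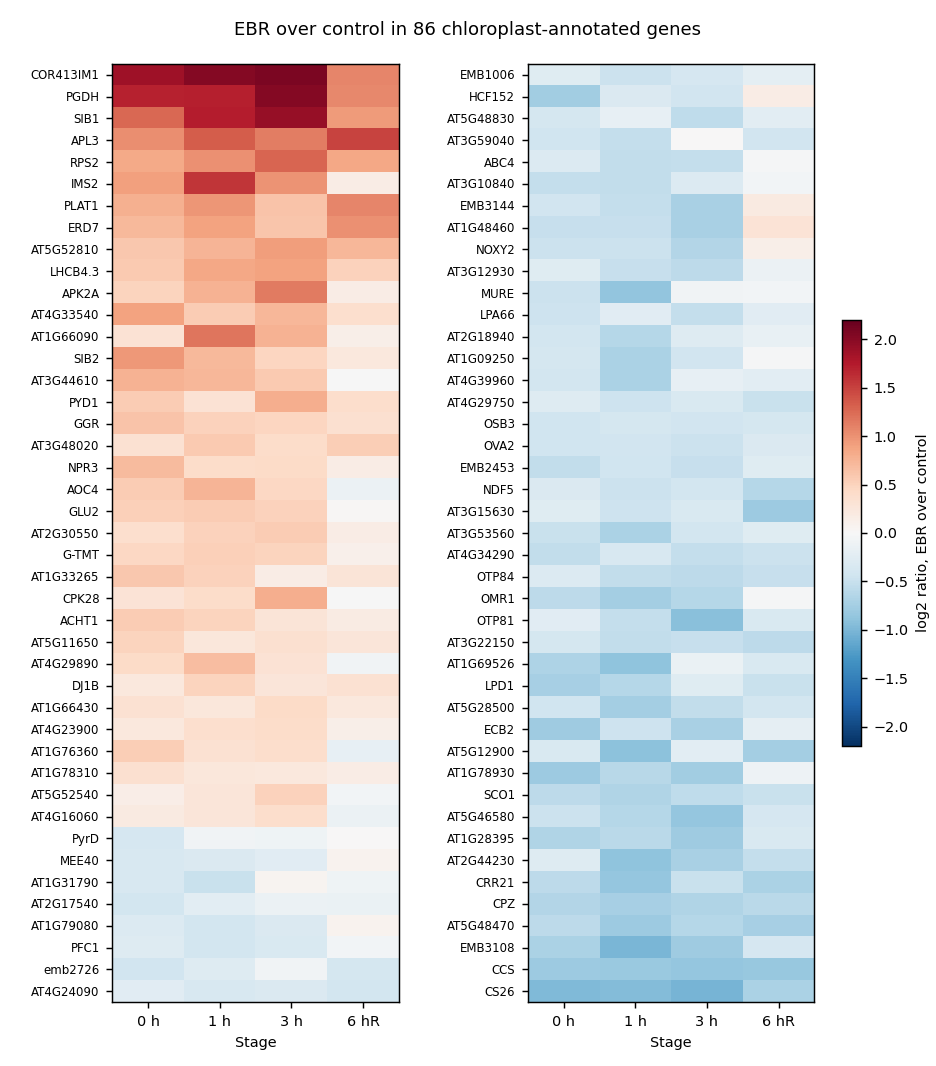
The log2 ratio of EBR to control shoots (colour, red higher and blue lower in EBR) is plotted for all 86 genes (rows, ordered by their mean over the stages, continuing in the right panel) at 0 h, 1 h, 3 h and 6 hR (columns). The upper 35 rows of the left panel have a mean above 0 and the other 51 rows a mean below 0, and colours are palest in the 6 hR column for 54 of the 86 genes.

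Counts by role differed in sign. Of 13 genes for RNA work in the organelle 10 fell and 0 rose, with a median of the gene means of -0.48, against a median of -0.33 over the 86 genes and -0.03 over all probe sets. Of 3 genes of plastid translation all 3 fell, with a median of -0.41, although the call for emb2726 did not hold under other scaling, and of 4 genes for DNA binding, protein folding and biogenesis 2 fell, with a median of -0.37. Amino acid metabolism was mixed, with 3 genes that rose and 2 that fell, and of 7 other enzymes 4 rose and 2 fell. The photosynthetic apparatus had 1 gene that rose and 1 that fell among 3. Of 10 genes of carbon, lipid and nucleotide metabolism 7 rose and 1 fell, of 6 genes of redox and stress protection 5 rose and 1 fell, and of 11 genes of defence and signalling 7 rose and 0 fell. The 24 genes without an annotated role split into 1 that rose, 15 that fell and 8 that did not pass. A missing annotation does not exclude a role, so some of these 24 may belong to the groups above. The counts by role cover only the genes assigned to each. These role groups were assigned with the values known and carry no test.

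**Figure D2:**
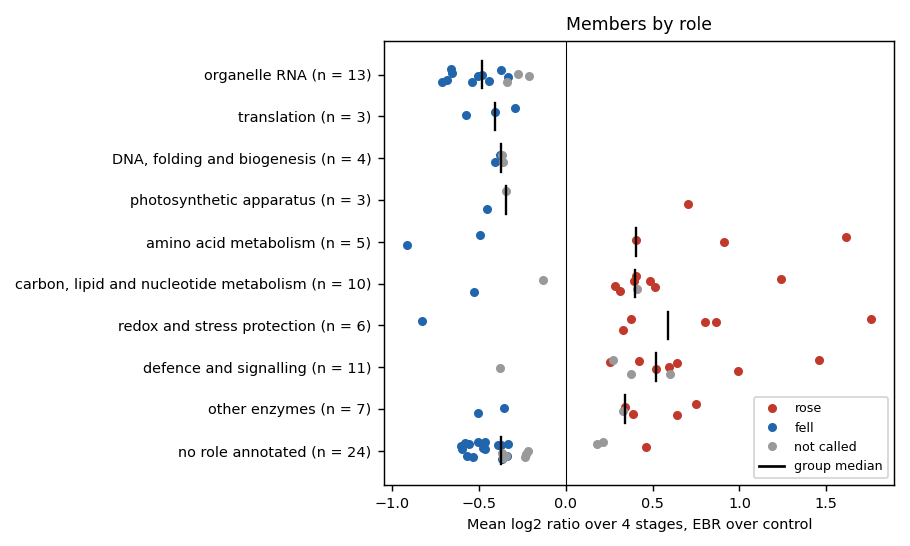
The mean log2 ratio of EBR to control over the 4 stages (x axis) is plotted for each of the 86 genes by role (rows, with the number of genes), coloured by the limma call, and a black bar marks each group's median. The 13 organelle RNA genes all lie below 0, between -0.71 and -0.21, and 10 of the 11 defence and signalling genes lie above 0.

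Among the organelle RNA genes, EMB3108, a DEAD-box RNA helicase also known as RH22, had ratios of -0.70, -1.01, -0.78 and -0.37 at 0 h, 1 h, 3 h and 6 hR. Its mean was -0.71 ± 0.26 (SD over 4 stages; limma adjusted p = 0.0075). It was lower in EBR at every stage and, by these ratios, was the only chloroplast-annotated gene at least 2-fold lower at 1 h. By the authors' deposited log2 means 9 of 85 genes were at least 2-fold lower at 1 h. The mean signal of EMB3108 at 1 h was 287.1 in EBR and 584.2 in control shoots in the authors' deposited table. AT5G48470 (PRDA1), whose name records developmental arrest linked to the plastid-encoded RNA polymerase, fell to ratios of -0.57, -0.80, -0.63 and -0.73, with a mean of -0.68 ± 0.10 (limma adjusted p = 0.0022). CPZ, the plastid tRNase Z that trims the 3' ends of tRNA precursors, had -0.65, -0.74, -0.67 and -0.59, and its mean of -0.66 ± 0.06 was among the steadiest of the set (limma adjusted p = 0.0018). The CPZ signal in the authors' deposited tables averaged 160.4 in EBR against 333.6 in control shoots at 1 h, and 142.7 in EBR against 309.1 in control shoots at 3 h. For CPZ and PRDA1 recovery looked like the other stages, whereas the EMB3108 ratio was smallest at recovery.

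PPR proteins bind organelle transcripts, and many are known to edit or process them. CRR21, which edits an ndhD transcript, had ratios of -0.57, -0.85, -0.48 and -0.70, and fell with a mean of -0.65 ± 0.16 (limma adjusted p = 0.0042). ECB2, an editing factor needed for early chloroplast biogenesis, had -0.79, -0.46, -0.71 and -0.20 (mean -0.54, limma adjusted p = 0.0175). OTP81 had -0.25, -0.52, -0.91 and -0.33 and OTP84 had -0.30, -0.54, -0.58 and -0.51, and both editing factors fell. All ratios of these 4 genes were below 0, with the largest at 0 h for ECB2, at 1 h for CRR21, and at 3 h for OTP81 and OTP84. LPA66, which edits the psbF transcript, and the PPR genes EMB2453 and EMB1006 also fell, with means of -0.37, -0.44 and -0.33. HCF152, which binds transcripts of the psbB operon, had -0.76, -0.32 and -0.43 at 0 h, 1 h and 3 h and 0.16 at 6 hR, and did not pass the test. Nor did MEE40, another PPR gene, at a mean of -0.21, or PFC1, an rRNA dimethylase needed for chloroplasts in the cold, at -0.27.

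The 3 translation genes were low at every stage. SCO1, the plastid elongation factor G, had ratios of -0.58, -0.67, -0.55 and -0.49 and fell with a mean of -0.57 ± 0.07 (limma adjusted p = 0.0031). OVA2, an isoleucyl-tRNA synthetase, fell by 0.41 on the log2 scale, and emb2726, an elongation factor Ts, by 0.29. The smallest of their 12 ratios was -0.08, for emb2726 at 3 h. Among the biogenesis genes OSB3, an organellar single-stranded DNA-binding protein, fell with a mean of -0.41 and an SD of 0.02. AT4G39960, annotated to protein folding and the response to heat, fell with a mean of -0.38. MURE, a relative of the bacterial peptidoglycan ligase that is needed for chloroplast development, had -0.48, -0.87, -0.07 and -0.05 and did not pass.

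The other genes of plastid gene expression came from a list of 25 transcription and RNA genes, of which 5 were listed by the authors. One is HCF152, and the other 4 have no chloroplast term in the tables. The plastid polymerase-associated genes FLN2, FLN1, PTAC12 and PTAC2 fell with means of -0.85, -0.82, -0.71 and -0.44. Of 36 plastid ribosomal proteins, 36 plastid chaperones and proteases, 19 Calvin-Benson cycle enzymes and 18 import components 0 were listed. In all, 11 of 393 genes on 13 plastid lists were listed, against 692 listed with 1 gene among the 22746 probe sets of the array. These shares are similar, so the lists without a listed gene are not a result about their functions. Of the 11 genes 5 rose and 4 fell, where 5.06% and 5.91% of all probe sets were called higher and lower. The 11 were listed for an EBR effect, so these counts only describe them. Genes outside the authors' tables cannot be named here, so their ratios are not known.

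The photosynthetic apparatus was represented by 3 genes that differed in sign. LHCB4.3, a minor light-harvesting protein of photosystem II, had ratios of 0.57, 0.86, 0.88 and 0.50 and rose with a mean of 0.70 ± 0.19 (limma adjusted p = 0.0043). It was the 1 gene listed from 48 of the photosystems and light harvesting, and in the authors' deposited table its mean signal at 3 h was 191.4 in EBR against 81.4 in control shoots. NDF5, needed for the chloroplast NDH complex that recycles electrons around photosystem I, fell, with -0.32, -0.47, -0.41 and -0.63 (mean -0.46, limma adjusted p = 0.0098). ABC4, a prenyltransferase that makes phylloquinone, had -0.30, -0.55, -0.52 and -0.02 and did not pass. The NDF5 ratio was farthest from 0 at recovery, whereas that of ABC4 was nearest to 0 there.

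Genes of amino acid synthesis lay at both ends of the range. PGDH, a phosphoglycerate dehydrogenase at the entry to serine synthesis, had ratios of 1.69, 1.70, 2.01 and 1.05 and rose with a mean of 1.61 ± 0.40 (limma adjusted p = 0.0015). In the authors' deposited tables its signal was 682.6 in EBR against 147.3 in control shoots at 0 h, 693.8 in EBR against 125.3 in control shoots at 1 h, and 683.2 in EBR against 146.1 in control shoots at 3 h. These PGDH signals hardly differed between the stages within either arm. CS26, a cysteine synthase family enzyme of the chloroplast, was the lowest gene of the set, with -0.97, -0.95, -1.02 and -0.70 and a mean of -0.91 ± 0.15 (limma adjusted p = 0.0014). Its signal in the authors' deposited tables was 113.1 in EBR against 302.9 in control shoots at 0 h, and 145.6 in EBR against 345.5 in control shoots at 3 h. OMR1, the threonine deaminase of isoleucine synthesis, fell with -0.57, -0.74, -0.63 and -0.03, and GLU2, a ferredoxin-dependent glutamate synthase, rose with 0.53, 0.56, 0.51 and 0.03. IMS2, annotated to methylthioalkylmalate synthase activity and glucosinolate synthesis, rose with 0.90, 1.57, 0.99 and 0.17. OMR1, GLU2 and IMS2 had ratios no larger than 0.17 in size at recovery after ratios of at least 0.5 in size at the other stages, and the calls for all 3 were lost when a stage was left out. The control arrays of IMS2 were spread, with an approximate SD of 0.67 log2 units at 0 h.

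In carbon metabolism APL3, a large subunit of ADP-glucose pyrophosphorylase in starch synthesis, had ratios of 1.03, 1.33, 1.12 and 1.49. It rose with a mean of 1.24 ± 0.21 (limma adjusted p = 0.0013) and had its highest ratio at recovery. Its signal in the authors' deposited tables was 55.8 in EBR against 20.4 in control shoots at 0 h, 62.1 in EBR against 17.6 in control shoots at 1 h, and 68.7 in EBR against 23.3 in control shoots at 3 h. LPD1, the dihydrolipoyl dehydrogenase of the plastid pyruvate dehydrogenase complex that feeds fatty acid synthesis, fell with -0.73, -0.63, -0.26 and -0.50. PYD1, an enzyme of pyrimidine breakdown, rose with a mean of 0.52, GGR, annotated to isoprenoid synthesis, with 0.48, and G-TMT, the tocopherol methyltransferase of vitamin E synthesis, with 0.39. GGR is the 1 gene of the set measured by a probe set type that may also bind related transcripts. AOC4, an allene oxide cyclase of jasmonate synthesis, had 0.57, 0.75, 0.45 and -0.13 and did not pass. PyrD, of riboflavin synthesis, had a mean of -0.13 and did not pass either. LPD1 was thus the only gene of these 10 that fell.

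The redox and stress protection group held the highest gene of the set. COR413IM1, a cold-regulated protein of the chloroplast inner envelope, had ratios of 1.87, 2.01, 2.08 and 1.08 and rose with a mean of 1.76 ± 0.46 (limma adjusted p = 0.0015). Its signal was, in the authors' deposited tables, 187.5 in EBR against 38.8 in control shoots at 0 h, 185.8 in EBR against 37.4 in control shoots at 1 h, and 211.4 in EBR against 49.4 in control shoots at 3 h. ERD7, an early gene of dehydration responses, had 0.72, 0.89, 0.60 and 1.00, and PLAT1, a PLAT-domain protein of abiotic stress tolerance, had 0.77, 0.97, 0.63 and 1.08. Both rose, with means of 0.80 and 0.86, and both had their highest ratio at recovery. ACHT1, an atypical thioredoxin, and DJ1B, a DJ-1 homologue, rose by 0.38 and 0.33 on the log2 scale.

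CCS, the copper chaperone that loads copper/zinc superoxide dismutases, was the one gene of this group that fell. Its ratios of -0.80, -0.82, -0.85 and -0.83 gave a mean of -0.83 with an SD of 0.02 (limma adjusted p = 0.0013). No other gene of the 86 with a mean beyond 0.5 in size had so small an SD between stages. In the authors' deposited tables its signal was 324.3 in EBR against 808.4 in control shoots at 0 h, 355.8 in EBR against 899.9 in control shoots at 1 h, and 296.0 in EBR against 710.6 in control shoots at 3 h.

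**Figure D3:**
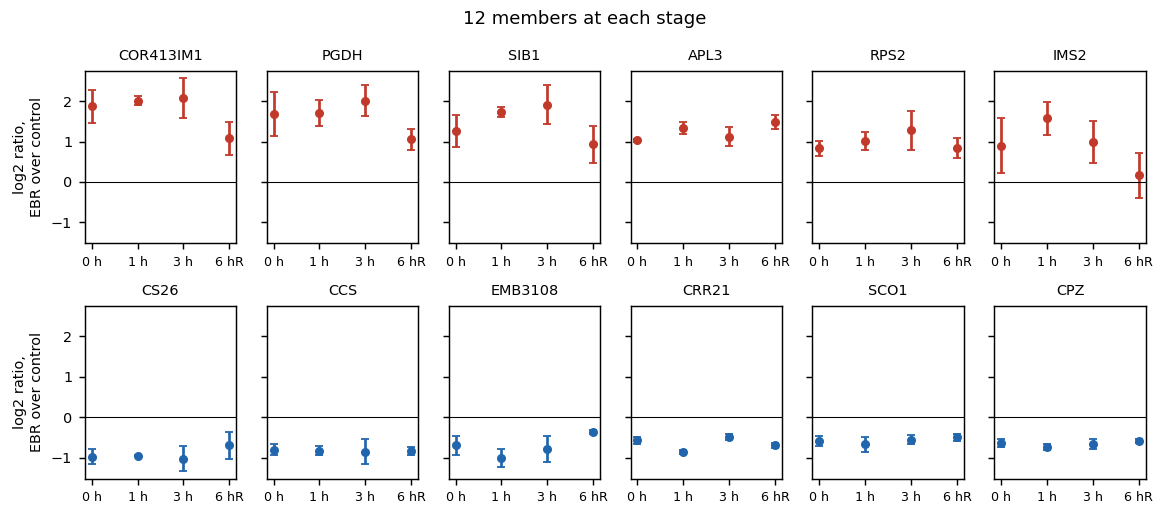
The log2 ratio of EBR to control (y axis) is plotted at each stage (x axis) for 6 genes that rose (upper row, red) and 6 that fell (lower row, blue), and the bars show plus and minus the approximate SD of the 3 control arrays, not an error of the ratio. COR413IM1 lies at 1.87, 2.01, 2.08 and 1.08, CCS stays between -0.85 and -0.80, and the IMS2 bar at 6 hR crosses 0.

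Of the 11 defence and signalling genes 7 rose, 4 did not pass the test, and 4 were below 0 at 6 hR. SIB1, a VQ-motif protein that binds plastid sigma factors and also acts in the nucleus with WRKY factors, had ratios of 1.26, 1.73, 1.91 and 0.93. It rose with a mean of 1.46 ± 0.45 (limma adjusted p = 0.0026), and its relative SIB2 rose too, with 0.96, 0.72, 0.47 and 0.23. The SIB1 signal in the authors' deposited tables was 74.2 in EBR against 12.6 in control shoots at 0 h, 620.9 in EBR against 135.1 in control shoots at 1 h, and 435.3 in EBR against 85.7 in control shoots at 3 h. SIB1 was thus higher in EBR at each of these stages and higher in heat in each arm. RPS2 had 0.83, 1.01, 1.28 and 0.84 and rose with a mean of 0.99 ± 0.21 (limma adjusted p = 0.0015). The kinase gene APK2A, of the PBS1-like family, had 0.49, 0.76, 1.15 and 0.17, AT3G44610, annotated as a protein kinase, had 0.77, 0.74, 0.57 and -0.01, and NPR3 had 0.70, 0.40, 0.42 and 0.16. All 3 rose, though none of the 3 calls held with each stage left out. AT1G66090, annotated as a receptor of innate immunity, had 0.32, 1.18, 0.77 and 0.12 and did not pass (limma adjusted p = 0.0517), with an approximate control SD of 0.99 log2 units at 6 hR. CPK28 at a mean of 0.38 did not pass either. AIF4 was the 1 gene of this role with a mean below 0, at -0.38, -0.70, -0.41 and -0.02, which also did not pass.

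Of the genes without an annotated role, AT2G44230 had -0.29, -0.89, -0.71 and -0.53 and fell with a mean of -0.60. AT1G28395 fell with -0.66, -0.59, -0.79 and -0.33 and AT5G46580 with -0.48, -0.63, -0.84 and -0.37. AT1G78930 fell with -0.80, -0.61, -0.76 and -0.11, but its signals in the authors' deposited table at 0 h were only 7.4 in EBR and 15.1 in control shoots. AT3G15630 differed from these in having its lowest ratio, -0.81, at recovery. AT3G48020 was the only gene of these 24 that rose, with 0.33, 0.58, 0.40 and 0.55. Among genes annotated only with an enzyme activity, AT5G52810 rose with 0.60, 0.75, 0.92 and 0.72 and AT4G33540, a hydrolase annotated to the arsenic response, with 0.88, 0.57, 0.73 and 0.38. The methyltransferase gene AT1G69526 fell with -0.67, -0.88, -0.15 and -0.33. Its signals at 0 h were also low in the authors' deposited table, at 8.4 in EBR and 20.0 in control shoots. Other low signals in the authors' deposited tables included those of OTP81 at 3 h, at 9.9 in EBR and 25.5 in control shoots. APK2A had 8.3 at 1 h and 9.9 at 3 h in control shoots in the authors' deposited tables. RPS2 had 10.8, 16.8 and 16.3 in control shoots at 0 h, 1 h and 3 h in the authors' deposited tables. AT5G52810 had 12.6 in control shoots at 1 h in the authors' deposited table.

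At single stages few of these differences reached 2-fold. At 0 h 4 genes were higher by at least 2-fold in EBR shoots and 0 were lower by as much, against 0.95% and 0.123% of all probe sets. The counts were 7 higher and 1 lower at 1 h (0.677% and 0.123% of all probe sets), and 6 higher and 1 lower at 3 h (0.818% and 0.154%). At 6 hR 5 were higher and 0 lower (0.585% and 0.365%). No test is possible for a stage alone. With 1.5-fold as the threshold, 15 genes were higher and 10 lower in EBR shoots at 0 h (2.99% and 1.16% of all probe sets), and 16 were higher and 21 lower at 1 h (2.44% and 1.53%). The counts at that threshold were 15 higher and 15 lower at 3 h (2.98% and 1.2%), and 8 higher and 8 lower at 6 hR (2.54% and 2.17%). COR413IM1, PGDH and APL3 were at least 2-fold higher at all 4 stages. Values near the threshold were those of APL3 (1.03) and SIB2 (0.96) at 0 h, RPS2 (1.01) and PLAT1 (0.97) at 1 h, APL3 (1.12) and IMS2 (0.99) at 3 h, and ERD7 (1.00) and SIB1 (0.93) at 6 hR. On the lower side they were CS26 (-0.97) at 0 h, EMB3108 (-1.01) and CS26 (-0.95) at 1 h, CS26 (-1.02) and OTP81 (-0.91) at 3 h, and CCS (-0.83) at 6 hR. The authors' deposited log2 means gave larger differences. At least 2-fold apart in the authors' deposited tables were 16 of 83, 21 of 85 and 20 of 85 genes at 0 h, 1 h and 3 h, and the signs were those of the ratios for 83, 85 and 83 genes. The 2 genes of opposite sign at 3 h, AT1G31790 and AT3G59040, had ratios of 0.06 and 0.00 there.

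The next comparison asks whether the EBR effect in heat differed from that at 0 h. The limma contrast of the mean 1 h and 3 h ratio against the 0 h ratio called 0 of the 86 genes, as it called 0% of all probe sets. At an unadjusted p under 0.05, 3 genes were higher and 2 lower, against 1.69% and 2.31% of all probe sets. With 3 ratios this contrast has 1 residual degree of freedom, and on simulated data it called 0% of changes as large as 3 on the log2 scale, so the data cannot show such a difference. The differences of the ratio at 1 h from 0 h ran from -0.60 to 0.86, with 40 genes above 0 and 46 below, and those of 3 h from 0 h ran from -0.66 to 0.66. APK2A was at the upper end at 3 h and SIB1 ran from 1.26 at 0 h through 1.73 at 1 h to 1.91 at 3 h, while ACHT1 had 0.56, 0.48 and 0.29 and SIB2 had 0.96, 0.72 and 0.47 over these stages.

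At recovery the ratios of most genes lay closer to 0. The ratio smallest in size was the 6 hR one for 54 of the 86 genes, which is 62.8%, against 56.1% of the 602 other listed genes and 28.3% of all probe sets. The recovery stage is not in the authors' tables, which listed genes for the other 3 stages, so these counts are a description. The median size of the ratio was 0.48, 0.53, 0.51 and 0.27 at 0 h, 1 h, 3 h and 6 hR, where all probe sets had 0.13, 0.14, 0.15 and 0.14. The limma contrast of 6 hR against the mean of the other stages called 0 of the 86 genes after adjustment, against 0.374% of all probe sets higher and 0.11% lower. At an unadjusted p under 0.05 it had 14 higher and 15 lower, against 6% and 7.25% of all probe sets. On simulated data it called 10% of changes of 1 and 68% of changes of 2 on the log2 scale. COR413IM1 came nearest to a call, with a ratio at 6 hR that was 0.91 below its mean at the other stages (-0.91, limma adjusted p = 0.053). AT1G48460 followed at 0.87 above (limma adjusted p = 0.0613), with -0.51, -0.51, -0.72 and then 0.29. EMB3144, annotated with ATP binding, had -0.41, -0.52, -0.71 and then 0.20, and NOXY2 had -0.48, -0.47, -0.65 and then 0.13. These and HCF152 were among the 14 genes whose sign at 6 hR opposed their mean over the other stages, 7 from each side. Against this run APL3, PLAT1, ERD7, NDF5 and AT3G15630 were among the 8 genes whose ratio was largest in size at recovery.

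**Figure D4:**
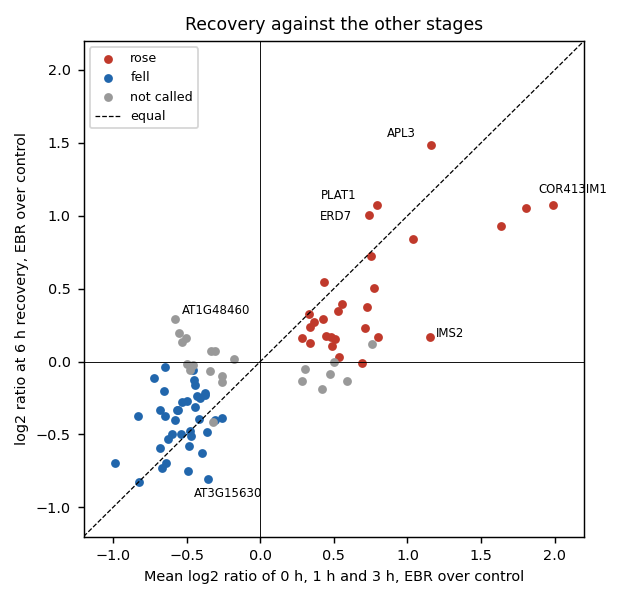
The log2 ratio of EBR to control at 6 h of recovery (y axis) is plotted against the mean of the 0 h, 1 h and 3 h ratios (x axis) for the 86 genes, coloured by the limma call over the 4 stages, with a dashed line of equal values. Most points lie between the dashed line and 0, COR413IM1 is at 1.08 on the y axis, and APL3 at 1.49 is above the line.

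The change with heat alone comes from the authors' deposited table of normalized log2 means, which holds 83 of the 86 genes and 708 probe sets, has no error and excludes recovery. Genes entered the authors' deposited table by differing at least 2-fold from the 0 h control in at least 1 condition, so a gene with a small EBR ratio had to change with heat. In EBR shoots, the authors' deposited table had 18 genes at least 2-fold lower and 8 at least 2-fold higher after 3 h of heat than at 0 h, against 27% and 15% of the probe sets in it. In control shoots, the authors' deposited table had 17 lower and 5 higher, against 22.3% and 10.2%. After 1 h the authors' deposited table had 16 lower and 4 higher in EBR shoots (24.3% and 11%), and 15 lower and 5 higher in control shoots (20.5% and 11.3%). The shares of the genes are no larger than those of the whole table. The genes assigned to organelle RNA and translation had 1 direction with heat. In the authors' deposited table all 11 organelle RNA genes and all 3 translation genes it holds were below 0 after 3 h in both arms, with organelle RNA medians of -0.85 in EBR and -0.83 in control shoots. Values nearest to 0 among them were -0.03 for EMB2453 in EBR and -0.01 for OTP81 in control shoots. The 24 genes without an annotated role, some of which may belong to these roles, were not of 1 direction. After 3 h the authors' deposited table had 19 of them below 0 and 5 above 0 in EBR shoots. In control shoots it had 20 below 0 and 4 above 0. The direction was common among listed genes lower in EBR. Of 199 other listed genes with a mean EBR ratio below 0, the authors' deposited table had 172 below 0 after 3 h in EBR and 172 in control shoots.

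Of the genes assigned to organelle RNA, MEE40 was the lowest, which the authors' deposited table put at -1.97 in EBR and -1.68 in control shoots after 3 h. Lower values in both arms stood among genes not assigned to that role. AT2G18940, which has no annotated role and may still belong to it, was at -2.24 in EBR and -2.30 in control shoots in the authors' deposited table. PLAT1 was at -2.14 in EBR and -2.15 in control shoots in the authors' deposited table, although its EBR ratio was above 0 at each stage. Near MEE40, but not lower in both arms, were AIF4 and AT2G44230. AIF4 was at -1.80 in EBR and -1.62 in control shoots, and AT2G44230 at -1.91 in EBR and -1.79 in control shoots, in the authors' deposited table. Both arms thus had these genes at similar distances below their own 0 h value. At the other end the authors' deposited table had AT1G66090 at 6.02 in EBR and 5.56 in control shoots, and SIB1 at 2.70 in EBR and 2.72 in control shoots. AT1G78310 (VQ9), a VQ-motif protein like SIB1, was at 1.75 in EBR and 1.99 in control shoots in the authors' deposited table. PGDH and COR413IM1, high in EBR shoots, lay near their 0 h value in heat, at 0.03 and 0.15 in EBR and -0.05 and 0.11 in control shoots in the authors' deposited table.

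The heat change had similar values in both arms. After 3 h, 78 of 83 genes had the same sign in EBR and control shoots in the authors' deposited table, and no gene was 2-fold apart between the arms. As a description across genes, which are not independent and share their arrays, the authors' deposited table gave a Pearson r of 0.965 between the arms after 3 h, and 0.946 for the 82 genes without AT1G66090. The difference, EBR minus control, in the authors' deposited table had a median of -0.02 and ran from -0.81 for SIB2 to 0.71, with ACHT1 at -0.80, OTP81 at -0.75 and ABC4 at -0.51. At the upper end the authors' deposited table had RPS2, APK2A and AT1G31790 at 0.71, AT3G48020 at 0.69 and LPD1 at 0.52. For SIB2 these came from -0.96 in EBR and -0.15 in control shoots in the authors' deposited table, and for RPS2 from 1.25 in EBR and 0.55 in control shoots. None of these differences has an error or a test.

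**Figure D5:**
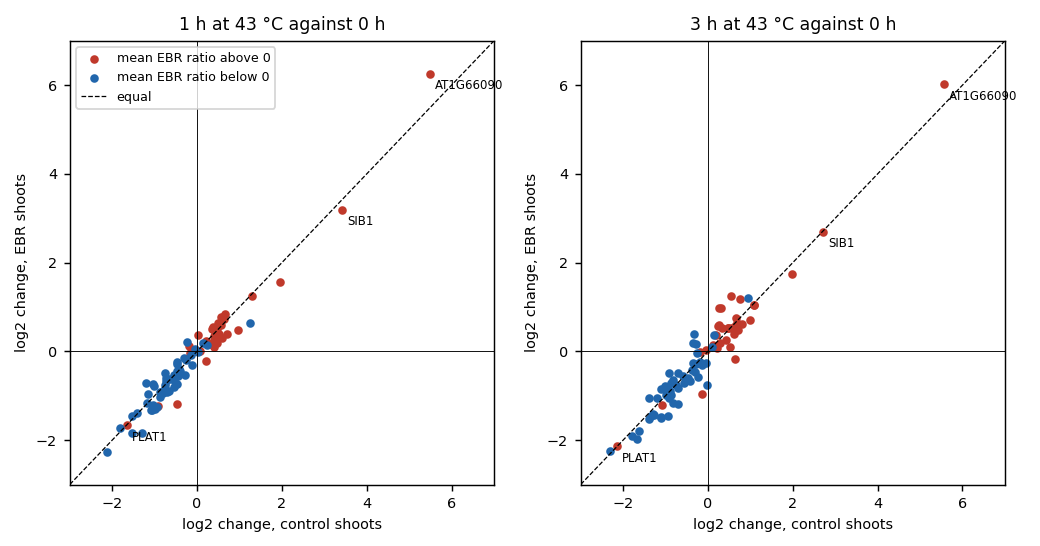
The log2 change with heat in EBR shoots (y axis) is plotted against that in control shoots (x axis) for 83 genes, after 1 h (left) and 3 h (right) at 43°C relative to 0 h of the same arm, from the authors' deposited table, coloured by the sign of the mean EBR ratio. Points follow the dashed line of equal change, with AT1G66090 at 6.02 in EBR and 5.56 in control shoots after 3 h and most genes below 0 in EBR ratio also below 0 in heat.

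The EBR ratio and the heat change had the same sign for most of these genes. After 3 h the authors' deposited table gave the heat change the sign of the mean EBR ratio for 72 of 83 genes in EBR shoots (86.7%) and 75 of 83 in control shoots (90.4%). For the 584 other listed genes the authors' deposited table gave 390 (66.8%) in EBR and 409 (70.0%) in control shoots. Listing favours like signs, because the authors' deposited table compares heated EBR shoots with the 0 h control and so adds both effects. Among the 27 genes that also stand in a same-stage table, which needs no heat change, the authors' deposited tables gave like signs for 21 (77.8%) in EBR and 22 (81.5%) in control shoots. For the 320 other listed genes of that kind, the authors' deposited tables gave 169 (52.8%) in EBR and 185 (57.8%) in control shoots. Both of these subsets also passed the listing against the 0 h control, so the listing that favours like signs still bears on them. The 0 h arrays enter both the heat change and the mean EBR ratio, and no test of the difference was made. Among the genes that went against this run were PLAT1, SIB2 and NPR3, which rose with EBR. NPR3 was at -1.22 in heated EBR and -1.08 in heated control shoots in the authors' deposited table. AT5G12900, which fell with EBR, was a reverse case, at 1.21 in heated EBR and 0.94 in heated control shoots in the authors' deposited table. CS26, the lowest gene of the set by its EBR ratio, was another, at 0.36 in heated EBR and 0.14 in heated control shoots in the authors' deposited table.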

How the data were processed

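Per the labels, biotin-labelled shoot RNA was hybridised to ATH1 arrays, and each of 8 samples stands for 3 replicate arrays. MAS5 and GCRMA appear in the submitters' processing notes with neither version nor role, and the way arrays were averaged is not stated there. The deposited value table holds a linear ratio per probe set and sample. Control columns never exceed 1, so each ratio was taken to be against the control of its own stage, and the control column was taken as a geometric over an arithmetic mean, from which the approximate control SD follows. Both readings are inferences. Each of the 4 tables of comparisons the authors deposited gives, per condition, a normalized log2 mean, a mean intensity and a linear fold, without error. A probe set was listed, per the file headers, if its treatment p in a 2-way analysis of variance was at most 0.05 after correction and its fold at least 2.

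EBR ratios were the EBR column over the control column, on the log2 scale. R 4.3.3 with limma 3.58.1 tested them over the 22746 probe sets, with 11 control probe sets left out and no intensity filter, since the table has no levels. On simulated data of 22746 probe sets the 4-stage test called 56%, 90% and 98% of changes of 0.5, 1 and 2, and 0.0310% of unchanged probe sets. Noise was simulated as independent between stages, so an offset that the stages share is not covered. Heat changes are differences of the authors' deposited log2 means. Tables and figures used Python 3.11.15, pandas 2.3.3 and matplotlib 3.10.9. Symbols came from a TAIR10.1 gene table, in which all 86 genes matched. The files name no build, so no coordinates are given.

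Named genes are those with the 5 highest and lowest ratios at each stage, the 10 largest mean increases and decreases called with 1 sign at all 4 stages, the 5 largest each way in recovery and heat contrasts, members of gene lists, and genes next to 2-fold. This rule gave 46 genes, and others were chosen after their values were seen. The members, gene lists and roles were chosen with earlier results of these data known. Alternatives covered scaling, stages left out, moderation, the source of the values, thresholds and membership. The number of arrays limits the precision.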

Additional observations from a re-analysis of the deposited data

How the results depend on the processing

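No mean over the stages changed sign under the alternatives run, though at 3 h alone AT1G31790 and AT3G59040 had the opposite sign in the authors' deposited log2 means. With 1 stage left out, 12, 9 and 14 genes rose and 17, 10 and 21 fell without 0 h, 1 h and 3 h, where fewer ratios remain. Without variance moderation 0 rose and 1 fell (28 rose and 37 fell with it), though the same ratios entered. Centring each stage, quantile normalization, robust moderation, the EBR column alone, the authors' deposited log2 means, leaving out 6 hR and both other membership rules kept both counts within 1.5 times. Centring or quantile normalization ended the calls for emb2726 (limma adjusted p = 0.0736 with centring, and 0.0351 to 0.214 over its alternatives), AT1G69526, AT4G39960, AT2G18940, AT3G12930 and AT3G10840, all of which fell. At 1.5-fold the genes higher in EBR numbered 15, 16, 15 and 8 at 0 h, 1 h, 3 h and 6 hR, and those lower 10, 21, 15 and 8. From the authors' deposited log2 means, 11, 12 and 13 genes were at least 2-fold higher and 5, 9 and 7 lower at 0 h, 1 h and 3 h. Quantile normalization gave 1 gene lower at 0 h and 2 at 1 h, and centring gave 0 lower at 3 h, where CS26 lies next to 2-fold. For heat at 1.5-fold the authors' deposited table gave 11 higher and 33 lower in EBR and 10 and 30 in control shoots after 1 h, and 15 and 34 in EBR and 15 and 31 in control shoots after 3 h. The recovery contrast called 0 genes under centring and quantile normalization too, and no alternative with a test was run for the heat contrast. The cause of the other moves was not tested. The contrasts of 1 h alone and 3 h alone against 0 h leave no residual degrees of freedom and were given as values. No paired analysis was possible because each group has 1 sample without replicate numbers, and the pairing by stage is already in the ratio.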
